A study of Homo sapiens with 8 samples.

Results

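The genes of the mitochondrial ribosomal proteins were taken as all genes of the deposited gene table whose name starts with MRPL or MRPS followed by a digit, which gave 79 of 13471 genes. The names put 49 of them in the MRPL series and 30 in the MRPS series, on 21 chromosomes. Of the 79, 77 are annotated as protein-coding and 2, MRPL45P2 and MRPS31P5, as transcribed pseudogenes. The name does not always give the subunit. MRPS30 and MRPS18A encode proteins of the large subunit despite their names, and MRPS36 encodes a component of the 2-oxoglutarate dehydrogenase complex rather than of the ribosome. By known role the set therefore held 50 genes of the large subunit, 26 of the small subunit and 3 of neither.

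Mitochondrial ribosomes translate the few messenger RNAs of the mitochondrial genome, all of which encode subunits of the oxidative phosphorylation complexes. Their ribosomal RNAs come from mitochondrial DNA, whereas every one of their proteins is encoded in the nucleus, translated in the cytosol and imported. Some of these proteins have a counterpart in bacterial ribosomes and the others were gained in the mitochondrial lineage.

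The libraries came from hTERT-RPE1, a telomerase-immortalized human line of retinal pigment epithelium, and held RNA without immunoprecipitation (no IP) and after immunoprecipitation (IP) with an antibody against hnRNP U, a nuclear protein that binds RNA and chromatin and is also called SAF-A. For interphase, replication was stalled by 24 h in thymidine at 2 mM. For mitosis, the same block was followed by a release of 6 h and by a night in STLC, which inhibits the kinesin Eg5 and so arrests cells in mitosis. The 4 groups (interphase no IP, interphase IP, mitosis no IP, mitosis IP) had 2 libraries each, and no control-antibody IP was analysed here. Interphase therefore means cells stalled by thymidine and mitosis means cells arrested by a drug, in 1 cell line. Nothing in the labels says whether replicates came from separate cultures, so p-values measure only the spread between these libraries, which may be technical. In bulk RNA, a change in the number of cells in a state and a change of RNA per cell cannot be told apart.

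Values are FPKM, that is, fragment numbers relative to transcript length and to the total of a library, and the number of fragments per library is unknown. Over the 79 genes, log2 values of replicates had a Pearson's r between 0.982 and 0.994. Of the phase markers, 6 of 6 mitotic genes were called higher in mitosis without IP and 3 of 4 S-phase genes lower. Of 8 pigment epithelium markers, 3 had values (PMEL, MITF and OTX2); PMEL stood at 0.114 FPKM or less in each group mean, and the other 5, RPE65 among them, were not analysed here. None of 4 markers of other cell types had a value. The 10 highest genes took 58.4% to 63% of all FPKM without IP but 12.4% to 20.6% after IP, and this difference in makeup moves with each IP comparison below.

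Coding sequences from both ends of the interphase IP comparison show what these messages look like. The first 120 coding bases are given for the 3 genes of lowest fold change in the IP (MRPL41, MRPL54, MRPS24) and the 3 of highest (MRPL19, MRPL42, MRPL30). They run 5′ to 3′, with G and C in capitals (GENCODE release 29, GRCh38).
MRPL41: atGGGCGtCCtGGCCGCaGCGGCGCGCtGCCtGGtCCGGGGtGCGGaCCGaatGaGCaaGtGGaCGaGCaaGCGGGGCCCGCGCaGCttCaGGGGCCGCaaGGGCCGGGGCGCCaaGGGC
MRPL54: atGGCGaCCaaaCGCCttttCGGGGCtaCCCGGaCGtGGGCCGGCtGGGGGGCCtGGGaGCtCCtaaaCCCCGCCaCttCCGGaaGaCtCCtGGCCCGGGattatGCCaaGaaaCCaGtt
MRPS24: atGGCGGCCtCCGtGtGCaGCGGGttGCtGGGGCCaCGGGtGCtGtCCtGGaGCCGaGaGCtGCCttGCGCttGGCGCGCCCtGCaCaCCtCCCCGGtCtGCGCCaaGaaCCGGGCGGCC
MRPL19: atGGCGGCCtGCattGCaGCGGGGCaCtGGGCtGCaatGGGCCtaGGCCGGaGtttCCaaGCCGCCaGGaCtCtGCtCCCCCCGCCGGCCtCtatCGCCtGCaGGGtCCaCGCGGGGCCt
MRPL42: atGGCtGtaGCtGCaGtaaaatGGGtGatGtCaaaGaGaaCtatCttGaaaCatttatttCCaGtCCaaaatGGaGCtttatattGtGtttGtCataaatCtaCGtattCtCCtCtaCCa
MRPL30: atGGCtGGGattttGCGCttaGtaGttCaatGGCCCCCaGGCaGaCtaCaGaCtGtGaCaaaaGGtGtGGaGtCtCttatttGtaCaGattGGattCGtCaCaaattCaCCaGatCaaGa

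These starts did not separate the 2 ends of the ranking. G and C made up 75.8% of the start in MRPL41, 64.2% in MRPL54 and 73.3% in MRPS24, but also 70.8% in MRPL19, against 35.8% in MRPL42 and 45.0% in MRPL30. A second window, the last 120 coding bases, was looked at after the first and did not separate them cleanly either, with 56.7%, 61.7% and 46.7% for the 3 lowest genes and 37.5%, 50% and 50% for the 3 highest. Over the whole coding sequence, GC content was 65.7% in MRPL41, 60.1% in MRPL54 and 60.1% in MRPS24, above the 47.1% of MRPL19, 42.2% of MRPL42 and 42.0% of MRPL30. These 6 genes were picked by the IP values, so this is a description.

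The first comparison asked which RNAs were recovered with hnRNP U in interphase. On the deposited FPKM scale, 61 of the 79 genes were called lower in the IP than without it, 10 were called higher and 8 did not pass the test (limma on log2(FPKM + 1), Benjamini-Hochberg adjusted p below 0.05 over all 13471 genes). Among all genes, 37% were called lower and 37.6% higher, 74.6% in all. The median log2 fold change was -1.32 over the 79 genes and 0.02 over all genes. The direction against zero depended on the scale. When each library was rescaled to the same FPKM sum, an alternative chosen after the data were seen, the median of all genes moved to 1.17 and that of the 79 genes to 0.24. Of the 79 genes, 34 were then called higher and 25 lower, beside 9533 higher and 1126 lower of all 13471 genes. Against the median of all genes, the 79 genes stood at -1.34 as deposited, -1.34 after median centring, -1.41 after quantile normalization and -0.93 after rescaling to the sum. Values below are on the deposited scale unless stated.

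MRPL41, a protein of the large subunit (chromosome 9, 137551199 to 137552555, plus strand), was lowest of all in the IP. It measured 101 and 91.7 FPKM in the interphase libraries without IP and 9.12 and 6.47 in the IP. The log2 fold change was -3.48 (SE 0.17, limma adjusted p = 5.3e-07). MRPL54, also of the large subunit (chromosome 19, 3762664 to 3768575, plus strand), went from 41.1 and 49.5 FPKM to 4.05 and 4.89, a log2 fold change of -3.08 (SE 0.12). MRPS24 of the small subunit (chromosome 7, 43866558 to 43869893, minus strand) went from 123 and 134 FPKM to 14.9 and 14.8, a log2 fold change of -3.03 (SE 0.09). Each of these 3 had both IP libraries far below both libraries without IP, which their choice as the largest called decreases makes likely beforehand. The table gives MRPS24 the same interval as URGCP, so its value is uncertain.

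MRPL19 (chromosome 2, 75646783 to 75690851, plus strand), a large-subunit protein with a bacterial counterpart, stood at the other end. It measured 10.7 and 11 FPKM without IP and 28.2 and 31.7 in the IP, a log2 fold change of 1.38 (SE 0.10, limma adjusted p = 3.3e-06). MRPL42 (chromosome 12, 93467488 to 93516213, plus strand) rose from 36.2 and 34.8 FPKM to 74.8 and 78.6, a log2 fold change of 1.09 (SE 0.13). MRPL30 (chromosome 2, 99181079 to 99197626, plus strand) rose from 11.2 and 12.9 FPKM to 21.3 and 23.1, a log2 fold change of 0.83 (SE 0.13). In these 3 genes both IP libraries lay above both libraries without IP, which their choice as the largest called increases makes likely beforehand. After removal of the trends with transcript length and GC content, MRPL42 turned to -0.56 with its longest annotated transcript, which has 15582 bases, whereas its coding transcript has 701; with the transcripts of longest coding sequence its direction held. With the latter, the call for MRPL30 was lost (0.21, adjusted p = 0.127).

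**Figure D1:**
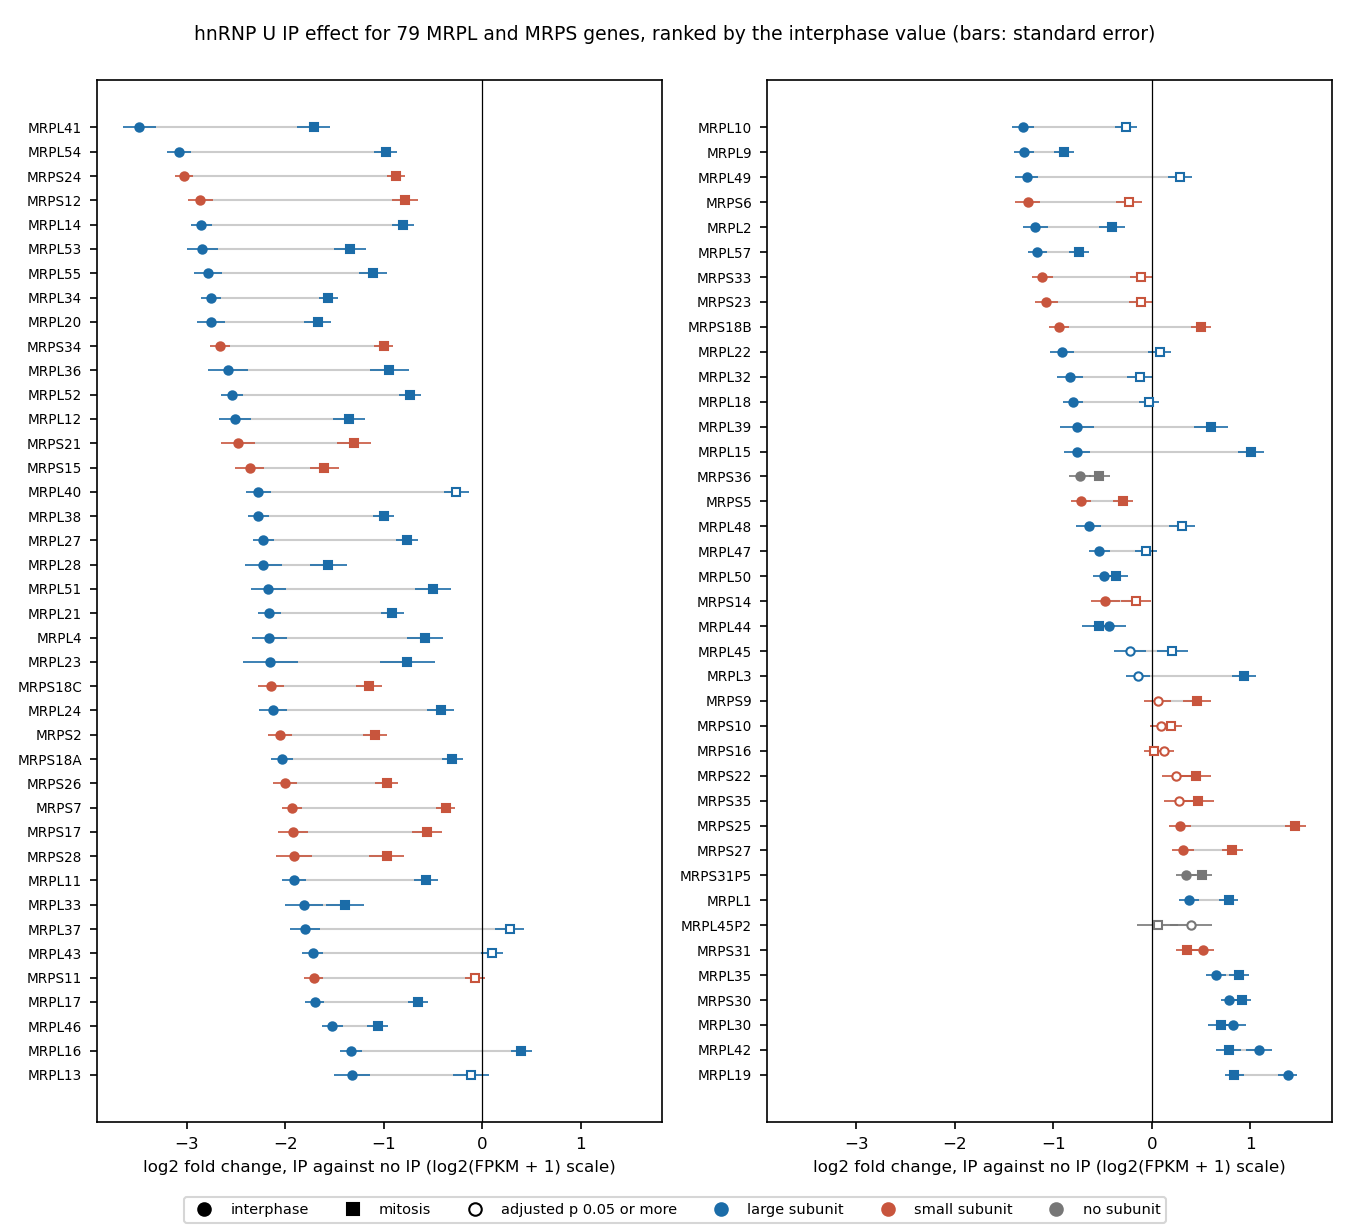
Log2 fold change of the IP against no IP for each of the 79 genes on the deposited scale, ranked from MRPL41 to MRPL19 by the interphase value (circles; squares, mitosis; bars, standard error; open symbols, adjusted p of 0.05 or more; colour, subunit). Interphase values run from -3.48 to 1.38, and the mitotic value lies significantly to the right of the interphase value for 59 genes.

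Of the 3 highest genes by mean FPKM over the 4 groups, IP libraries included, MRPS16 alone did not follow the majority. MRPL51 of the large subunit, among the 3 highest genes by mean FPKM, went from 249 and 272 FPKM to 55.7 and 58.7 (log2 fold change -2.17, SE 0.18). MRPL33, the homologue of bacterial L33, went from 221 and 237 FPKM to 71.2 and 58.8 (-1.81, SE 0.19). MRPS16, the homologue of bacterial S16, measured 86.5 and 91.0 FPKM without IP and 96.4 and 98.4 in the IP and did not pass the test. Thus the most abundant of the 79 without IP, MRPL51, was below MRPS16 in both interphase IP libraries. MRPS16 ranked high partly through its IP values. In interphase without IP its mean was 88.8 FPKM, below MRPS24 (129), MRPL20 (118), MRPL14 (111) and MRPL41 (96.2), which were all called lower in the interphase IP. On the scale of equal FPKM sums neither MRPL51 (-0.45, adjusted p = 0.159) nor MRPL33 (-0.09, adjusted p = 0.716) was called. MRPS16 shares its interval in the table with CFAP70.

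The subunits were alike in direction but not in every class. Classes follow the standard names of the ribosomal proteins, which count MRPS18A and MRPS18B as mitochondria-specific although both are related to bacterial S18. In the large subunit, 25 of 30 genes with a bacterial homologue were called lower (median log2 fold change -1.52), and 17 of 20 mitochondria-specific genes (-1.62). In the small subunit, 13 of 16 genes with a bacterial homologue were called lower and none higher (-1.91), against 5 lower and 3 higher among 10 mitochondria-specific genes (-0.34). Among all genes 37% were called lower and 37.6% higher, beside 50% and 30% in the last class. The difference between the classes was not tested, and their GC content was not compared. MRPS12, which corresponds to the decoding-centre protein S12 of bacteria, fell from 30.6 and 30.2 FPKM to 3.78 and 2.90 (-2.86, SE 0.13). MRPS7, the homologue of the small-subunit assembly protein S7, fell from 45.5 and 45.8 FPKM to 10.8 and 11.7 (-1.93, SE 0.10; not called on the scale of equal FPKM sums, at -0.28 and adjusted p = 0.211). MRPS34, a mitochondria-specific protein, fell from 65.9 and 68.2 FPKM to 10 and 9.57 (-2.66, SE 0.10).

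The 3 genes related to bacterial S18 had unequal values. MRPS18A, whose product sits in the large subunit, had a log2 fold change of -2.03 (SE 0.11) in the interphase IP, and MRPS18C, in the small subunit, -2.14 (SE 0.13). MRPS18B, also in the small subunit, measured 21.7 and 23.1 FPKM without IP and 10.4 and 12 in the IP, a log2 fold change of -0.94 (SE 0.10). With the trends of the longest transcripts removed, these values were -0.46 for MRPS18A, -2.65 for MRPS18C and -0.13 for MRPS18B, the last no longer called (limma adjusted p = 0.278). The difference between paralogs was not tested, and reads shared by them could be split between them in the authors' counting. MRPS30, the large-subunit protein with an MRPS name, rose from 18.3 and 17.6 FPKM to 33.3 and 30.4 (0.79, SE 0.09), but turned to -0.44 after removal of the trends with the length and GC content of its longest transcript. MRPS36, the dehydrogenase component, fell from 16.2 and 16.2 FPKM to 9.36 and 9.39 (-0.73, SE 0.11).

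In mitosis the IP was closer to the libraries without IP. On the deposited scale 41 of the 79 genes were called lower in the mitotic IP, 18 higher and 20 neither, against 31.7% lower and 32.8% higher among all genes (64.5% in all). The median was -0.30 over the 79 genes and 0.01 over all genes. This direction did not hold when libraries were rescaled to the same FPKM sum. Of the 79 genes, 57 were then called higher and 0 lower. That share is close to the share of all genes, of which 9648 of 13471 were called higher and 281 lower. The median of the 79 genes, 1.01, was 0.07 above that of all genes. At an adjusted p below 0.05, 41 genes were lower in both IPs (23% of all genes), 16 were lower in interphase and not called in mitosis (11.5%), and 10 were higher in both (24.8%). A further 4, MRPL3, MRPS22, MRPS35 and MRPS9, were higher in mitosis and not called in interphase (5.55%), and 4 were called in neither (14.9%). Another 4 had opposite calls, with the interphase IP lower and the mitotic IP higher (2.47%). The other combinations had 0 of the 79 genes: higher in interphase and lower in mitosis (3.73% of all genes), higher in interphase alone (9.06%) and lower in mitosis alone (4.95%).

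MRPL41 again had the lowest fold change of the 79, at 69.4 and 57.6 FPKM without IP and 21.0 and 16.5 in the mitotic IP (log2 fold change -1.71, SE 0.17). MRPL20, the homologue of bacterial L20, measured 79.4 and 91.5 FPKM without IP and 29.8 and 22.7 in the IP (-1.67, SE 0.14). MRPS15, the homologue of bacterial S15, measured 39.9 and 34.1 FPKM without IP and 12.1 and 10.9 in the IP (-1.60, SE 0.15). On the scale of equal FPKM sums none of these 3 was called (-0.32, -0.28 and -0.24, limma adjusted p = 0.128, 0.226 and 0.299). MRPL20 shares its interval in the table with LOC148413.

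The highest in the mitotic IP were MRPS25, MRPL15 and MRPL3. MRPS25, a mitochondria-specific protein of the small subunit, measured 10 and 10 FPKM without IP and 31.9 and 27.2 in the IP (1.46, SE 0.11), and shares its interval with FGD5-AS1 and NR2C2. MRPL15 measured 29 and 36.0 FPKM without IP and 61.0 and 71.7 in the IP (1.01, SE 0.13). MRPL15 was 1 of 4 genes called lower in the interphase IP and higher in the mitotic IP, with MRPL16, MRPL39 and MRPS18B (2.47% of all genes). On the scale of equal FPKM sums these 4 stood above zero in interphase, at 0.90, 0.26, 0.88 and 0.70. With the trends of the longest transcripts removed, MRPL15 (-0.02, limma adjusted p = 0.869), MRPL39 (-0.34, adjusted p = 0.125) and MRPS18B (-0.13, adjusted p = 0.278) were not called in interphase, and with those of the longest coding sequences MRPL39 was not called in mitosis (0.45, adjusted p = 0.0516). The mitotic call was also lost for MRPL16 without mitosis IP replicate 1 (0.37, adjusted p = 0.0532) or mitosis no IP replicate 1 (0.28, adjusted p = 0.0949), and for MRPL39 without mitosis IP replicate 2 (0.34, adjusted p = 0.0897) or mitosis no IP replicate 2 (0.54, adjusted p = 0.0687). MRPL3, the homologue of bacterial L3, measured 52.5 and 57.4 FPKM without IP and 102 and 111 in the IP (0.94, SE 0.12), while its interphase value of -0.14 did not pass (limma adjusted p = 0.31). MRPL3 shares its interval with SNORA58.

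The difference between the IP effects was tested as an interaction. The IP effect was higher in mitosis than in interphase for 59 of the 79 genes, lower for 1 and not called for 19, against 27.2% higher and 19.9% lower among all genes (47.1% in all). The median difference was 1.03 over the 79 genes and 0.07 over all genes. Relative to all genes it was 0.96 as deposited, 0.94 after rescaling to the FPKM sum, 0.94 after quantile normalization and 0.51 after removal of the trends with length and GC content, so its direction held under each of these. Both a lower call in the interphase IP and an IP effect called higher in mitosis were found for 55 of the 79 genes, against 21.7% of all genes. That is 55 of the 61 genes called lower in the interphase IP, beside 2917 of 4983 among all genes. Both calls use the same interphase libraries with opposite sign, so a low interphase IP value by itself favours a higher difference.

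MRPS24, MRPL54 and MRPS12 had the largest differences. For MRPS24 the mitotic libraries stood at 69.4 and 71.1 FPKM without IP and 38.3 and 37.9 in the IP, and its difference between phases was 2.16 (SE 0.13, limma adjusted p = 4.8e-05). For MRPL54 they stood at 25.0 and 23.5 FPKM without IP and 12.1 and 11.6 in the IP (difference 2.10, SE 0.17). For MRPS12 they stood at 19.2 and 19.4 FPKM without IP and 12 and 9.77 in the IP (difference 2.08, SE 0.19). In these 3 genes mitosis had lower values without IP and higher values in the IP than interphase. MRPS12 shares its interval with SARS2.

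MRPL37 is a mitochondria-specific protein of the large subunit. In interphase it measured 44.3 and 42.9 FPKM without IP and 11.2 and 12.4 in the IP (-1.80, SE 0.15), and in mitosis 37.9 and 40.8 without IP and 40.7 and 56.3 in the IP. The mitotic difference of 0.28 did not pass the test (limma adjusted p = 0.13) but did without mitosis IP replicate 1 (0.51, adjusted p = 0.00864), with the trends of the longest transcripts (0.58, adjusted p = 0.00596) or of the longest coding sequences (0.38, adjusted p = 0.0362) removed, and on the scale of equal FPKM sums (1.68, adjusted p = 4.4e-05). The difference between phases was 2.08 (SE 0.21). MRPL12, a large-subunit protein also known to bind the mitochondrial RNA polymerase, had log2 fold changes of -2.51 (SE 0.16) in interphase and -1.35 (SE 0.16) in mitosis. On the scale of equal FPKM sums the interphase call for MRPL37 (-0.15, adjusted p = 0.58) and the mitotic call for MRPL12 (-0.03, adjusted p = 0.879) were lost. MRPL19 was the only one of the 79 called with a lower IP effect in mitosis, at -0.54 (SE 0.14, limma adjusted p = 0.015). This call was lost when interphase no IP replicate 1 (-0.52) or mitosis no IP replicate 2 (-0.50) was left out. It was also lost with the trends of the longest transcripts removed (-0.19, adjusted p = 0.29).

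**Figure D2:**
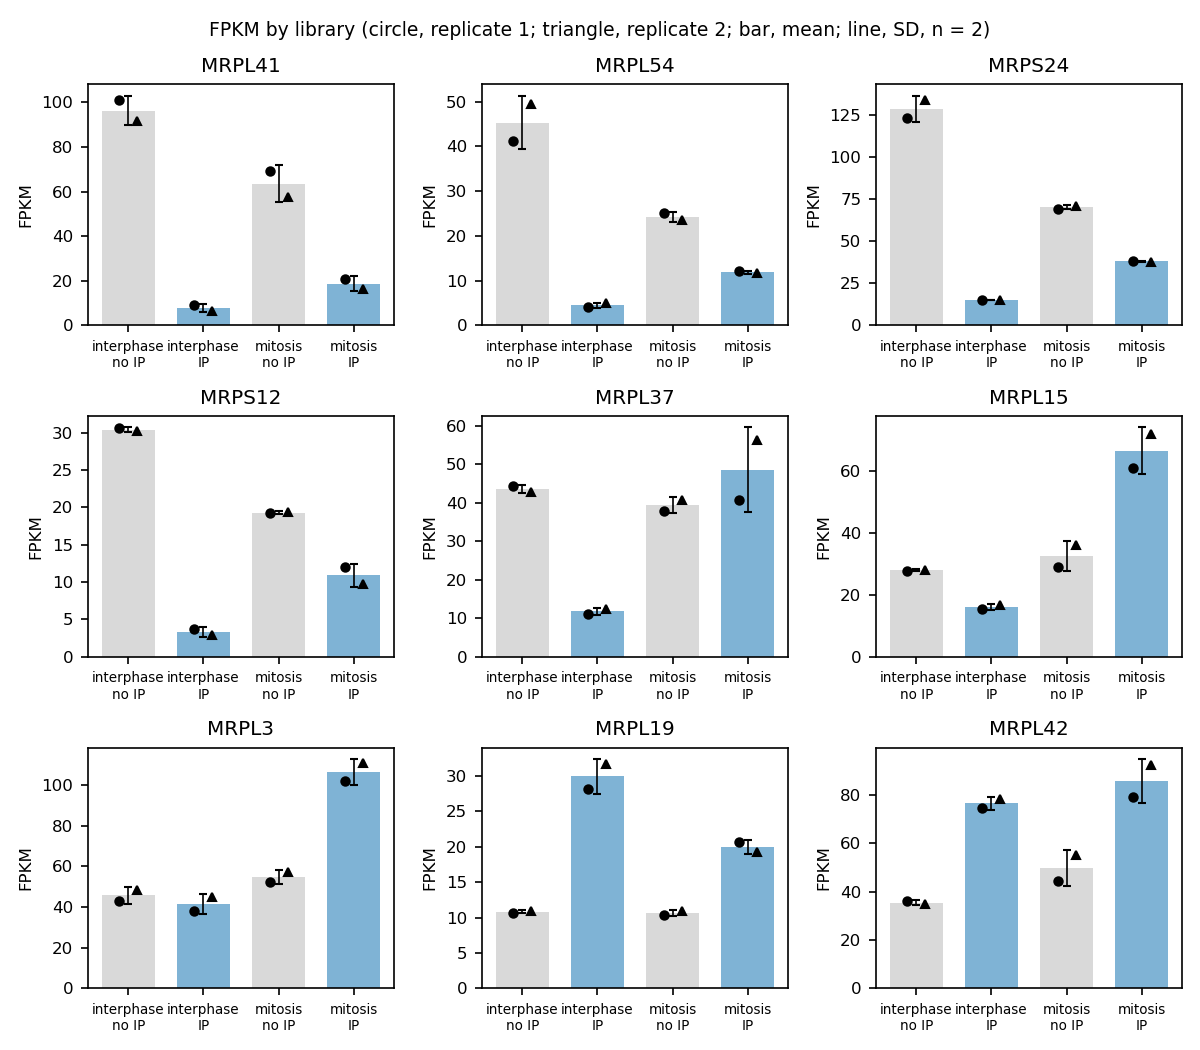
FPKM of 9 genes in each of the 8 libraries (circle, replicate 1; triangle, replicate 2; bar, mean; line, SD, n = 2; grey, no IP; blue, IP). MRPL41, MRPL54, MRPS24 and MRPS12 are low in both IPs and lowest in the interphase IP, MRPL37 and MRPL15 are low only in the interphase IP, and MRPL19 and MRPL42 are higher in both IPs.

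Without IP, RNA of these genes was lower in mitosis as deposited. This was weaker after the trends with length and GC content were removed. On the deposited scale 39 of the 79 were called lower in mitosis than in interphase, 2 higher and 38 neither, against 25.5% lower and 26.2% higher among all genes (51.7% in all), and the median was -0.35 against -0.00 over all genes. The number called fell with any library of this comparison left out, each leaving 1 library in its group. The median was then -0.30 without interphase no IP replicate 1 and -0.37 without interphase no IP replicate 2. It was -0.30 without mitosis no IP replicate 1 and -0.40 without mitosis no IP replicate 2. After rescaling to the FPKM sum 17 of the 79 were called, all lower, with a median of -0.36. Of all 13471 genes, 2149 were then called lower and 2174 higher. After removal of the trends with length and GC content 23 of the 79 were called lower and 3 higher, with a median of -0.13. Of 13121 genes, 3312 were then called lower and 3526 higher. With the transcripts of longest coding sequence, 16 of the 79 were called lower and 5 higher, with a median of -0.12. Of 13121 genes, 3257 were then called lower and 3485 higher. With either trend removal the share of the 79 called lower was thus near that of all genes.

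MRPL53 of the large subunit fell from 58.1 and 60.8 FPKM in interphase to 23.9 and 32.2 in mitosis (-1.07, SE 0.16, limma adjusted p = 0.00072). MRPS34 fell from 65.9 and 68.2 FPKM to 34.4 and 29.7 (-1.05, SE 0.10). MRPL17, the homologue of bacterial L17, fell from 32.8 and 31.8 FPKM to 16.3 and 17.4 (-0.90, SE 0.10). These 3 were picked as the largest called decreases, so the lack of overlap between their groups adds no support. The 2 genes called higher were MRPL42, at 44.6 and 55.0 FPKM in mitosis (0.47, SE 0.13), and MRPS25 (0.39, SE 0.11). With single libraries left out, the call for MRPL42 was lost without interphase no IP replicate 1 (0.50, adjusted p = 0.0522), interphase no IP replicate 2 (0.44, adjusted p = 0.0758) or mitosis no IP replicate 2 (0.32, adjusted p = 0.108). That for MRPS25 was lost without any 1 of the 4 libraries of this comparison (0.38 to 0.39, adjusted p = 0.0627 to 0.07). On the scale of equal FPKM sums neither was called (0.45, adjusted p = 0.172, and 0.35, adjusted p = 0.138). With trends removed, MRPL42 was not called for the longest transcripts (0.15, adjusted p = 0.315), nor MRPS25 for the longest coding sequences (0.22, adjusted p = 0.11).

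In the IP the genes went the other way. Of the 79, 54 were called higher in the mitotic than in the interphase IP, 4 lower and 21 neither, against 35.8% higher and 25.6% lower among all genes (61.4% in all). The median was 0.61 over the 79 genes and 0.08 over all genes; after rescaling to the FPKM sum it was 0.33, with all genes at -0.12. MRPL15 rose from 15.4 and 16.8 FPKM to 61.0 and 71.7 (1.97, SE 0.13), MRPL37 by 1.93 (SE 0.15) and MRPL14, the homologue of bacterial L14, from 13.4 and 15.7 FPKM to 48.9 and 42.3 (1.58, SE 0.11). The level of MRPL15 without IP differed between phases by 0.20, which did not pass as deposited (limma adjusted p = 0.21) but did with the trends of the longest transcripts (0.50, adjusted p = 0.0064) or of the longest coding sequences (0.38, adjusted p = 0.0201) removed. The 4 lower genes were MRPL19 (-0.56), MRPS16 (-0.56), MRPL57 (-0.28) and MRPS30 (-0.28). The calls for MRPL57 and MRPS30 are weak: that for MRPL57 was lost with any 1 library left out, and that for MRPS30 without interphase IP replicate 1 (-0.22, adjusted p = 0.114), mitosis IP replicate 1 (-0.25, adjusted p = 0.111) or mitosis IP replicate 2 (-0.30, adjusted p = 0.0632).

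For 27 of the 79 genes both calls were made in opposite directions, lower in mitosis without IP and higher in mitosis in the IP, a pair of calls that 6.01% of all genes had. MRPL54, MRPS24 and MRPS34 were among them. MRPS34 rose from 10 and 9.57 FPKM in the interphase IP to 16.0 and 15.0 in the mitotic IP (0.61, SE 0.10), a call lost with the trends of the longest transcripts (0.18, adjusted p = 0.0982) or of the longest coding sequences (0.15, adjusted p = 0.171) removed and on the scale of equal FPKM sums (0.33, adjusted p = 0.107).

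**Figure D3:**
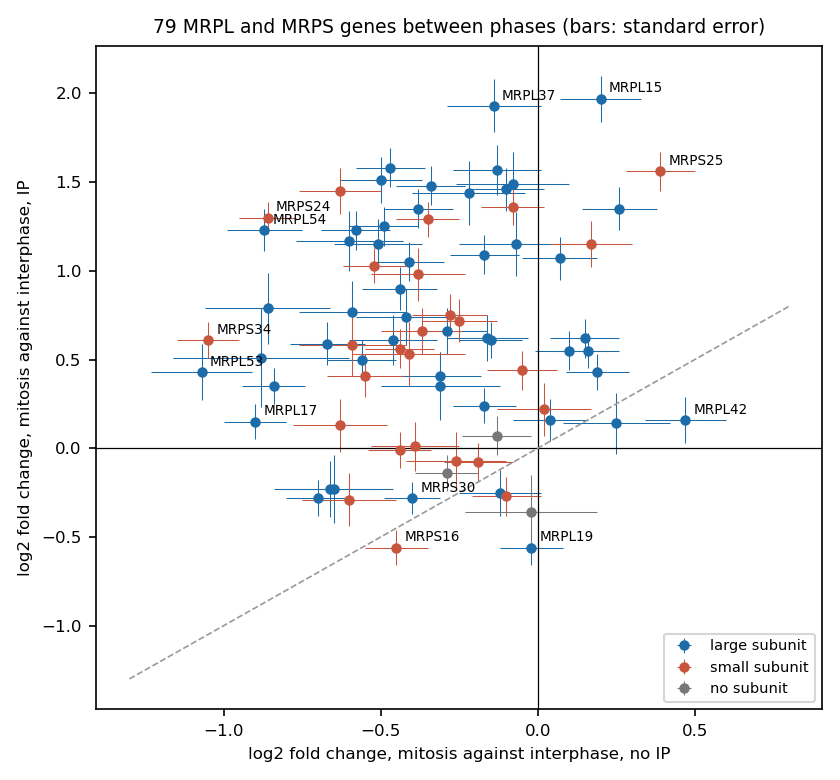
Log2 fold change of mitosis against interphase in the libraries without IP (horizontal axis) and in the IP libraries (vertical axis) for the 79 genes on the deposited scale (bars, standard error; dashed line, equal change). The 27 genes called lower without IP and higher in the IP lie in the upper left, with MRPL19 and MRPS16 lowest on the vertical axis.

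The IP effect of these genes varied with the base composition of the transcript. The grouping by GC content was made after the IP values had been seen. In the 26 genes with a GC content of 33.5% to 43.3% in the longest annotated transcript, 13 were called lower and 8 higher in the interphase IP, with a median of -0.31. In the 27 genes at 43.7% to 51.8%, 22 were lower and 2 higher (-1.27), and in the 26 genes at 52.2% to 71.9% all 26 were lower (-2.24). MRPL41 had the highest GC content of the 79, 71.9%. Across the 79 genes, which are not independent replicates and share the 8 libraries, Spearman's rho between GC content and the interphase IP effect was -0.72, and across 13121 genes with an annotated transcript it was -0.71. For the difference between phases rho was 0.65 over the 79 genes and 0.42 over all genes.

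Transcripts of the 79 genes were short (median 1748 bases against 3615 over all genes), and their median GC content, 47.3%, was close to the 47.6% of all genes. After the trends with both were removed from each library, 54 of the 79 genes were called lower in the interphase IP and 5 higher. Of 13121 genes, 4531 were then called lower and 3451 higher. The median was -0.75 over the 79 genes and -0.06 over all genes. Of the 71 calls made as deposited, 51 lower and 4 higher ones were made again in the same direction. The 54 also hold 3 genes that were called higher as deposited, MRPL42 (-0.56), MRPS30 (-0.44) and MRPS27 (-0.40), the last named here after its values were seen. The part of library preparation or of binding in this relation was not tested.

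**Figure D4:**
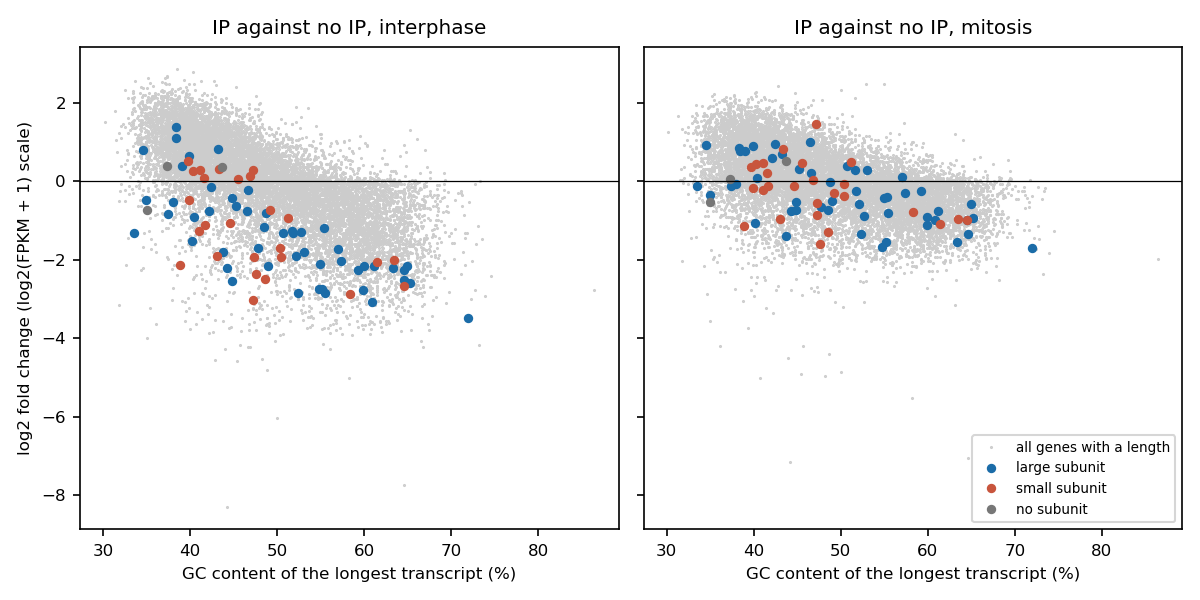
IP effect against the GC content of the longest annotated transcript in interphase (left) and mitosis (right) on the deposited scale (grey, all genes with an annotated transcript; colours, the 79 genes by subunit). The 79 genes follow the downward slope of all genes, with a rank correlation of -0.72 in interphase.

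Other genes of the pathway were grouped in lists. Of 6 mitoribosomal proteins with other symbols, 4 (66.7%) were lower and 1 (16.7%) higher in the interphase IP, beside 37% lower and 37.6% higher among all genes, and AURKAIP1 was lowest at -3.03 (SE 0.14) and PTCD3 highest at 0.91 (SE 0.14). Of 20 assembly factors, 15 (75%) were lower and 3 (15%) higher (median -0.67), from MPV17L2 at -2.25 (SE 0.15) to GTPBP10 at 1.58 (SE 0.11). Of 14 translation factors, 5 (35.7%) were lower and 6 (42.9%) higher (median 0.05), shares near those of all genes, from the elongation factor gene TUFM at -1.63 (SE 0.10) to GUF1 at 1.64 (SE 0.10). Of 10 genes for mitochondrial transcription and RNA stability, 3 (30%) were lower and 5 (50%) higher (0.53). In that list SLIRP and LRPPRC, whose proteins form 1 complex, lay at opposite ends, at -3.55 (SE 0.18) and 1.52 (SE 0.11).

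Other gene sets that encode abundant complexes had lower medians in both IPs. In the interphase IP, 70 of 80 cytosolic ribosomal protein genes (87.5%) were called lower (median -2.34) and 68 of 74 nuclear oxidative phosphorylation genes (91.9%, median -2.38), against 77.2% and -1.32 for the 79 genes. In the mitotic IP these medians were -1.43, -1.04 and -0.30. The phase pattern was not particular to the 79 genes. Shares follow for cytosolic ribosomal, oxidative phosphorylation and the 79 genes, then for all genes. The IP effect was called higher in mitosis for 65%, 91.9% and 74.7%, against 27.2% (medians 0.97, 1.34, 1.03 and 0.07). Without IP, 46.2%, 81.1% and 49.4% were called lower in mitosis, against 25.5%. In the IP, 50%, 82.4% and 68.4% were called higher in mitosis, against 35.8%. The differences between these sets were not tested.

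Promoters were searched because many of the 79 genes moved together between phases without IP on the deposited scale. RefSeq promoters of 300 bases (250 before to 50 after the start, GRCh38.p14) were matched by symbol for 68 of the 79 genes, and a gene counted once if any of its promoters held the letters on either strand. The letters searched were AAGATGGCG (YY1), CCGGAAG (ETS family) and the palindromic NRF1 consensus, taken from textbook knowledge after the expression values had been seen. AAGATGGCG was present in 19.1% of the 68 genes, against 4.74% of the 9858 genes of the table with a promoter and 2.14% of all genes with one. CCGGAAG was present in 42.6%, against 22.4% and 12.2%, and the NRF1 consensus in 13.2%, against 13.3% and 6.98%. By the call without IP, AAGATGGCG was in 5 of 35 genes called lower in mitosis and 8 of the other 33, CCGGAAG in 16 and 13, and the NRF1 consensus in 8 and 1. These counts are descriptions of 3 motifs in 2 groups and were not tested.

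The stretches of 29 bases around AAGATGGCG (capitals) are shown for 5 of the 13 genes that hold it, those picked by the naming rule given below. In these 5 the letters begin 8 to 23 bases after the annotated start, on the strand of the gene. Their position in the other genes was not looked at, and the search ended 50 bases after the start.
MRPS30 (chr5:44808950-44808978, plus strand): atcgcgggcaAAGATGGCGgcggccaggt
MRPS18B (chr6:30617853-30617881, plus strand): ggcgtacgtcAAGATGGCGgcgtctgtat
MRPS18A (chr6:43687764-43687792, minus strand): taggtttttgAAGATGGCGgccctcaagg
MRPS24 (chr7:43869480-43869508, minus strand): cgcttggcccAAGATGGCGgcctccgtgt
MRPL42 (chr12:93467512-93467540, plus strand): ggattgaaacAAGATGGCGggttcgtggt

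In MRPS30, MRPS18B, MRPS18A and MRPS24 the ATG inside these letters is the start codon of the annotated coding sequence, and in MRPL42 it is not. The letters thus overlap the first codons in 4 of the 5, and their presence is a match of letters rather than evidence of binding.

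The remaining named genes complete the range. MRPL11 had log2 fold changes of -1.91 (SE 0.12) in the interphase and -0.57 (SE 0.12) in the mitotic IP (on the scale of equal FPKM sums the interphase value, -0.28, was not called, adjusted p = 0.246), and MRPL4 -2.16 (SE 0.18) and -0.58 (SE 0.18). The mitotic call for MRPL4 was lost without mitosis no IP replicate 1 (-0.59, adjusted p = 0.0713), mitosis no IP replicate 2 (-0.58, adjusted p = 0.0698) or mitosis IP replicate 2 (-0.38, adjusted p = 0.138). MRPL2, the lowest protein-coding gene of the 79 by mean FPKM, measured 4.20 and 4.34 FPKM without IP and 1.38 and 1.26 in the IP in interphase (-1.18, SE 0.13), a call lost with the trends of the longest transcripts removed (-0.02, adjusted p = 0.892). MRPS22, whose product is specific to the mitochondrial small subunit, was called in the mitotic IP only (0.45, SE 0.15), and this call was lost without mitosis IP replicate 1 (0.37, adjusted p = 0.122) or mitosis no IP replicate 1 (0.33, adjusted p = 0.158), and under quantile normalization (0.30, adjusted p = 0.128) and both trend removals (0.21, adjusted p = 0.255, and 0.37, adjusted p = 0.0509). The pseudogene MRPL45P2, at 0.191 to 1.33 FPKM over the 8 libraries, passed no test. The pseudogene MRPS31P5 rose from 1.07 and 0.809 FPKM to 1.44 and 1.5 in the interphase IP (0.35, SE 0.10; lost without interphase no IP replicate 2, at 0.26 and adjusted p = 0.0934), but reads from its parent gene MRPS31 could be counted there. In all, 14 of the 79 genes share their exact interval in the table with another gene, the 8 besides those given above being MRPL13, MRPL43, MRPL49, MRPL57, MRPL9, MRPS18C, MRPS6 and MRPS7, and their values are uncertain. Without these 14, 50 of 65 genes were called lower and 9 higher in the interphase IP, with a median of -1.33. MRPL46 and MRPS11 lie 34 bases apart on chromosome 15 on opposite strands, and had interphase IP values of -1.52 and -1.71.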

How the data were processed

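RNA was sequenced from 8 libraries in 4 groups of 2, from directional libraries of RNA depleted of ribosomal RNA. The values were deposited as FPKM per library, per the file headers, for a gene table on hg38; TopHat and StringTie are named in the submitters' processing notes without versions or roles. The deposited ratio columns, per the file headers, are quotients of same-numbered FPKM columns and were only checked. The authors' treatment of reads shared by genes is not given in the sources used here. A lncRNA table without gene names was not used.

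Groups were compared with limma (version 3.58.1 in R 4.3.3, moderated with a mean-variance trend) on log2(FPKM + 1). A single fit held all 8 libraries and a coefficient per group, which left 4 residual degrees of freedom, and used neither a filter nor a block. Benjamini-Hochberg adjustment ran over 13471 genes, and calls are adjusted p below 0.05. The test was tried on simulated data first. The scale understates changes of genes near or below 1 FPKM. Depth is unknown, so no interval or floor is given. Genes were matched to GENCODE release 29 by symbol (12665) or older symbol (456), which left 350 unmatched.

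The genes and lists were chosen with earlier results of these data known. Named genes are the 3 largest called changes in each direction of each comparison, the 3 highest and 3 lowest mean levels, and a short list of known roles or paralogs. Alternatives were other pseudocounts (0.1 and 0.01), a filter at a mean FPKM of 1, quantile normalization, median centring, removal of loess trends (span 0.3) with transcript length and GC content, a replicate block, no variance trend and leaving out each library. Trend removal with the transcript of longest coding sequence and rescaling to equal FPKM sums were added after the data were seen.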

Additional observations from a re-analysis of the deposited data

Results flagged for a closer look

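For 24 of the named genes the effect of the IP differed between phases, being higher in mitosis than in interphase by the interaction test (limma adjusted p below 0.05). The named genes were picked in part by the size of this difference and of the IP changes, so this count is no separate result. The same call was made for 59 of the 79 genes and for 27.2% of all genes. The differences, as mitosis minus interphase on the log2 scale, were 2.16 for MRPS24, 2.10 for MRPL54, 2.08 for MRPS12, 2.08 for MRPL37, 2.05 for MRPL14, 1.77 for MRPL15, 1.77 for MRPL41, and 1.72 for MRPS18A. They were 1.67 for MRPL51, 1.66 for MRPS34, 1.57 for MRPL4, 1.56 for MRPS7, 1.5 for MRPL53, 1.44 for MRPS18B, 1.34 for MRPL11, and 1.17 for MRPS25 in the middle of the range, and 1.16 for MRPL12, 1.09 for MRPL3, 1.08 for MRPL20, 1.05 for MRPL17, 0.98 for MRPS18C, 0.79 for MRPL2, 0.76 for MRPS15, and 0.42 for MRPL57 at its lower end. MRPL19 differed in the other direction, at -0.54. The call for MRPL57 was lost with any 1 library left out, that for MRPS15 without interphase no IP replicate 1 (0.70, adjusted p = 0.0564) or mitosis no IP replicate 2 (0.65, adjusted p = 0.0552), and that for MRPL19 without the same libraries (-0.52 and -0.50). With the trends of length and GC content of the longest transcripts removed, the calls for MRPL12 (0.14, adjusted p = 0.59), MRPL2 (0.03, adjusted p = 0.917), MRPL20 (0.37, adjusted p = 0.145), MRPS15 (0.47, adjusted p = 0.093), MRPL57 (0.12, adjusted p = 0.532) and MRPL19 (-0.19, adjusted p = 0.29) were lost. With the longest coding sequences those for MRPL12 (0.20), MRPL2 (0.20), MRPL20 (0.39), MRPS15 (0.12) and MRPL57 (0.35) were lost, and with libraries rescaled to the same FPKM sum those for MRPL2 (0.66), MRPL3 (0.80), MRPS15 (0.48) and MRPL57 (0.09). Pseudocounts of 0.1 and 0.01 (0.42 and 0.43) and median centring (0.39) also ended the call for MRPL57. No explanation was tested.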

How the results depend on the processing

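Rescaling each library to the same FPKM sum was a setting chosen after the data were seen. With it the median of the 79 genes turned to 0.24 in the interphase IP and to 1.01 in the mitotic IP. Those of all genes were then 1.17 and 0.95. The difference between phases kept its direction (0.80). Mitosis against interphase gave 17 calls without IP, beside 4323 among 13471 genes, and a median of 0.33 in the IP. Under that setting the sign turned in the interphase IP for MRPL15 (0.90), MRPL2 (0.03), MRPL3 (1.55), MRPL57 (0.43), MRPS18B (0.70) and MRPS36 (0.88). In the mitotic IP it turned for MRPL11 (0.81), MRPL14 (0.61), MRPL17 (0.68), MRPL2 (0.69), MRPL33 (0.02), MRPL4 (0.70), MRPL51 (0.93), MRPL53 (0.01), MRPL54 (0.38), MRPL57 (0.52), MRPS12 (0.56), MRPS18A (1.02), MRPS18C (0.20), MRPS24 (0.54), MRPS34 (0.37), MRPS36 (0.80) and MRPS7 (1.01). Median centring gave medians of -1.19 in the interphase IP, -0.21 in the mitotic IP and 0.50 between phases in the IP, and quantile normalization 0.93 for the difference between phases and 0.44 between phases in the IP. Pseudocounts of 0.1 and 0.01 gave -1.46 and -1.47 in the interphase IP and 1.11 and 1.14 for the difference between phases.

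Removing the trends with length and GC content gave medians of -0.75 in the interphase IP, -0.15 in the mitotic IP, 0.64 for their difference and -0.13 between phases without IP. The last had 26 calls, beside 6838 among 13121 genes. The transcript of longest coding sequence was added later, and genes without a coding transcript such as MRPS31P5 kept their longest transcript. With it these medians were -0.77, -0.16, 0.63 and -0.12, and 0.46 between phases in the IP. Between phases without IP it gave 21 calls, 16 lower and 5 higher. Among 13121 genes there were 6742, 3257 lower and 3485 higher. The sign turned with the longest transcript for MRPL42 (-0.56), MRPS25 (-0.08), MRPS30 (-0.44) and MRPS31P5 (-0.17) in the interphase IP, for MRPL2 (0.00), MRPL4 (0.16), MRPL42 (-0.10), MRPL54 (0.01) and MRPS18A (0.36) in the mitotic IP, for MRPS30 (0.00) between phases in the IP, and for MRPL41 (0.03) and MRPS18A (0.11) between phases without IP. With the longest coding sequence it turned for MRPS25 (-0.28) and MRPS31P5 (-0.39) in the interphase IP, MRPL4 (0.08) and MRPS18A (0.38) in the mitotic IP, and MRPS18A (0.16) between phases without IP. The cause was not tested.

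With 1 library left out, whose group's lone sample is assumed to vary like the other groups, calls ranged from 66 to 71 (interphase IP), 48 to 59 (mitotic IP), 51 to 58 (difference between phases), 24 to 44 (between phases without IP) and 52 to 57 (between phases in the IP). The medians ranged from -1.37 to -1.3, -0.36 to -0.25, 0.98 to 1.10, -0.40 to -0.30 and 0.57 to 0.66. The replicate numbers are shared by the groups but nothing says that they mark a common source. Deviations of same-numbered libraries correlated at 0.088 to 0.528 over all genes and at -0.177 to 0.352 over the 79 genes. With the replicate number as a block, calls were 71, 60, 61, 45 and 61, against 71, 59, 60, 41 and 58 without it. The unknown depth limits what can be said of the genes near 1 FPKM, MRPL45P2 and MRPS31P5.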
